A study of Mus musculus with 8 samples.

Results

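Lipid-associated macrophages are tissue macrophages that gather around dying or overfilled fat cells, take up lipid and break it down in their lysosomes. They are known in obese fat, in atherosclerotic plaques and in other lipid-rich lesions, and the receptor TREM2 is needed for much of their programme. TREM2 binds lipids and lipoproteins at the cell surface and, having no signalling tail of its own, passes the signal through the adaptor TYROBP to the kinase SYK. The 10 genes described here are markers of these cells: the surface proteins Trem2, Tyrobp, Itgax, Msr1 and Cd9, the lysosomal and granule proteins Cd68, Gpnmb and Lyz2, and the secreted proteins Spp1 and Pla2g7. They were selected partly on their higher counts in the knockout libraries, so their differences between the genotypes are a description and not a test. They are 10 of 34866 genes in the table.

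RNA came from epididymal white fat of mice that the series title calls male, with no age stated. The 4 control samples have the genotype Aromatase flox/flox, in which both copies of the oestrogen-producing enzyme gene Cyp19a1 carry loxP sites. The 4 knockout samples have the genotype aP2-Cre;Aromatase flox/flox, so all 8 share the floxed gene and differ in the Cre transgene. The aP2 (Fabp4) promoter that drives Cre is known to be active in fat cells and also in some macrophages, and mice with the transgene alone were not analysed here. The labels do not say whether the samples of a group are separate animals, so the spread between them may be technical in part. The study asked which genes of fat act downstream of aromatase on phosphorus metabolism.

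Library totals ranged from 1538427 estimated counts (control replicate 4) to 3053565 (knockout replicate 4). Levels below are CPM, counts scaled to a common library size with TMM factors, which compare libraries and not genes. Adipoq, which fat cells secrete, was at 2110 to 3814 CPM in the 8 libraries, so this defining marker of the labelled tissue was present in each. Cyp19a1 had 0 to 5.02 estimated counts per library, too few to check the deletion. The share of counts on mitochondrial genes was 10.7% to 12.4% in the control and 8.70% to 10.1% in the knockout libraries, without overlap, and its part in the differences below was not tested. In bulk tissue, fewer cells of a type and less RNA per cell cannot be told apart.

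Promoter sequences are shown because the factors PU.1, AP-1 and MiT/TFE are known regulators of macrophage and lysosomal genes. Of the 10 members, 8 matched a RefSeq promoter by symbol (GRCm38.p6, 250 bases before to 50 after the start), with 9 promoters in all because Spp1 has more than 1 start. Words of 3 factors were searched on both strands. GAGGAAG, a core of the site of the myeloid factor PU.1, was found in 2 of the 9 promoters and in 13.6% of all 32851 promoters of that length. TGANTCA, a loose form of the AP-1 site that allows any base in the middle, was found in 4 of 9 and in 7.81% of all. The word CACGTG, the E-box read by lysosomal regulators of the MiT/TFE family, was found in 0 of 9 and in 7.15% of all. These counts describe a chosen set of genes, and regulation by these factors was not tested. Of the AP-1 words, that of Gpnmb began 8 bases after the start and its sequence is not shown. The stretches with the other matches are given below 5′ to 3′ on the gene's strand, with the matched words in capitals. The PU.1 word of Trem2 is on the opposite strand, so its reverse complement is in capitals, and it lies 41 to 35 bases before the start, with the AP-1 word 9 to 3 bases before it. Cd68 holds the AP-1 word at 2 places, Itgax and Spp1 each hold 1 matched word, and no matches overlap. The middle base of the AP-1 word is A in Trem2 and G in Itgax and Cd68.
Trem2, chr17:48346330-48346400, plus strand: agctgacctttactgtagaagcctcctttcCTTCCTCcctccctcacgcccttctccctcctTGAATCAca
Itgax, chr7:128129464-128129530, plus strand: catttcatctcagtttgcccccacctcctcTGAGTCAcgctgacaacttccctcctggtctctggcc
Cd68, chr11:69666171-69666349, minus strand: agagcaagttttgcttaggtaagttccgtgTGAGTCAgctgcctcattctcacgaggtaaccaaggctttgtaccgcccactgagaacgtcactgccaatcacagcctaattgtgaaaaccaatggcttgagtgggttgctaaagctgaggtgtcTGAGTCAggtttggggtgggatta
Spp1, chr5:104434968-104435034, plus strand: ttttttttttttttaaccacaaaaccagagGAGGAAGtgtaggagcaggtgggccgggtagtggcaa

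Trem2 (ENSMUSG00000023992, chromosome 17, 48346401 to 48354147) encodes the lipid-sensing receptor. Its level was 8.38, 10.04, 4.93 and 8.97 CPM in control replicates 1 to 4. The knockout libraries, in the same order, had 25.2, 16.1, 24.4 and 20 CPM. Every knockout library lay above every control library. The means were 8.08 ± 2.21 and 21.4 ± 4.21 CPM (SD, n = 4 each), and the log2 fold change was 1.40 with a standard error of 0.27. These values rest on 11 to 63 counts per library.

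Tyrobp (ENSMUSG00000030579, chromosome 7, 30413760 to 30417585) encodes DAP12, the adaptor that carries the signal of TREM2 and of several other myeloid receptors. Its level was 45.4, 42.3, 44.0 and 34.6 CPM in control replicates 1 to 4 against 52.7, 67.0, 63.2 and 62.0 CPM in the knockout replicates. The groups did not overlap, and the log2 fold change of 0.55 (standard error 0.14) was smaller than that of its partner receptor. Within the knockout group the pair went opposite ways: replicate 1 held the highest Trem2 level and the lowest Tyrobp level, and replicate 2 the lowest Trem2 and the highest Tyrobp.

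Itgax (ENSMUSG00000030789, chromosome 7, 128129547 to 128150657) encodes CD11c, an integrin subunit of dendritic cells and of macrophages in inflamed fat. It was at 6.64, 1.25, 4.93 and 3.85 CPM in control replicates 1 to 4 and at 11.4, 8.88, 9.70 and 17.1 CPM in the knockout replicates. The groups did not overlap, with a log2 fold change of 1.47 and a standard error of 0.42, the largest error among the 10. Control replicate 2 rests on 3 counts. Itgax reached the level required by the low-count filter in 2 of 4 control and 4 of 4 knockout libraries, so it was tested through the group in which it is high, whereas the other 9 members reached it in all 8 libraries. It shares 512 of its 4790 words of 31 bases with the neighbouring integrin gene Itgad, which was at 0.418 to 2.71 CPM, so the division of their reads is uncertain.

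Msr1 (ENSMUSG00000025044, chromosome 8, 39581685 to 39642673) encodes the class A scavenger receptor, which takes up modified lipoproteins. It was at 5.24, 5.44, 7.62 and 5.77 CPM in control replicates 1 to 4 and at 7.33, 7.67, 10.5 and 7.54 CPM in the knockout replicates. Control replicate 3 lay above knockout replicates 1 and 4, so the groups overlapped, and the log2 fold change was 0.46 with a standard error of 0.33. The values rest on 9 to 27 counts per library.

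Cd9 (ENSMUSG00000030342, chromosome 6, 125460266 to 125494791) encodes a tetraspanin, a membrane organiser that many cell types make, endothelial and epithelial cells among them. It was at 77.2, 102, 102 and 119 CPM in control replicates 1 to 4 and at 111, 111, 132 and 122 CPM in the knockout replicates. Control replicate 4 lay within the knockout range, and the log2 fold change of 0.26 (standard error 0.13) was the smallest of the 10. Cd9 transcripts share words of 31 bases with 547 other genes, but at most 75 of 2011 words with any of them, the pseudogene Cd9-ps, which was at 0 in all libraries. Within each genotype, Cd9 was highest in the library with the highest summed epithelial markers, described with Spp1 below.

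Cd68 (ENSMUSG00000018774, chromosome 11, 69664213 to 69666153) encodes macrosialin, a glycoprotein of late endosomes and lysosomes that marks phagocytes. It was at 49.6, 27.6, 38.6 and 29.5 CPM in control replicates 1 to 4 and at 73.7, 96.4, 78.7 and 73.5 CPM in the knockout replicates. The lowest knockout library lay well above the highest control library. The means were 36.3 ± 10.1 and 80.6 ± 10.8 CPM (SD, n = 4 each), with a log2 fold change of 1.13 and a standard error of 0.18.

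Gpnmb (ENSMUSG00000029816, chromosome 6, 49036546 to 49070929) encodes a glycoprotein of the endolysosomal membrane made by macrophages under lysosomal load. It had the largest log2 fold change of the 10, 1.54 with a standard error of 0.24. The levels were 12.2, 19.2, 22.9 and 14.7 CPM in control replicates 1 to 4 and 49.0, 37.9, 71.4 and 43.0 CPM in the knockout replicates. Knockout replicate 3 stood highest, and without it the log2 fold change was 1.32.

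Lyz2 (ENSMUSG00000069516, chromosome 10, 117277331 to 117282321) encodes lysozyme M, the bacteria-degrading enzyme of macrophages, monocytes and neutrophils. It was at 363, 403, 394 and 355 CPM in control replicates 1 to 4 and at 696, 599, 636 and 798 CPM in the knockout replicates. The groups did not overlap, and the log2 fold change of 0.85 had the smallest standard error, 0.12, on 554 to 2432 counts per library. Lyz2 shares 422 of its 1286 words of 31 bases with its copy Lyz1. Lyz1 was at 23.7 to 37.7 CPM in the control and 35.3 to 79.0 CPM in the knockout libraries.

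Spp1 (ENSMUSG00000029304, chromosome 5, 104435118 to 104441050) encodes osteopontin, a secreted glycoprotein of bone matrix, macrophages and many epithelia that binds integrins and CD44. Its levels were 5.59, 4.60, 5.38 and 17.9 CPM in control replicates 1 to 4 and 13.3, 13.7, 15.5 and 12.5 CPM in the knockout replicates. Control replicate 4 was the highest of all 8 libraries, while the other 3 control libraries lay below every knockout library. With all libraries the log2 fold change was 0.78 (standard error 0.39), and without control replicate 4 it was 1.39. That library also had the highest summed level of 7 epithelial markers (Epcam, Cdh1, Krt8, Krt18, Lcn5, Lcn8 and Adam7), 362 CPM, where the sum was 69.5 to 166 CPM in the remaining control libraries and 66.9 to 252 CPM in the knockout libraries. Within the knockout group, replicate 3 was highest in both Spp1 and that sum. The epididymal genes Lcn5 and Lcn8 were at 0 in all 8 libraries. Adam7 was at 3.77 CPM in control replicate 2 and 8.53 CPM in knockout replicate 3. In the remaining libraries it was at 0 to 0.641 CPM. The part of epithelial RNA in the Spp1 level was not tested.

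**Figure D1:**
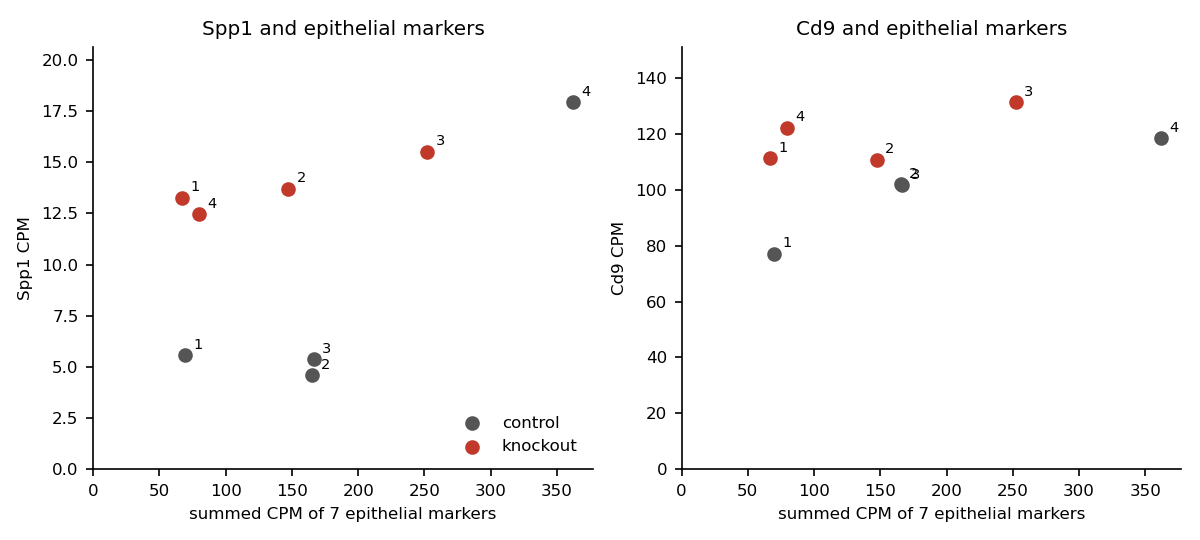
Spp1 (left) and Cd9 (right) in CPM (y axis) against the summed CPM of 7 epithelial markers (x axis), 1 point per library with its replicate number, control in grey and knockout in red. Control replicate 4 lies farthest right at 362 CPM and is the highest library for Spp1 at 17.9 CPM, whereas the other control libraries are at or below 5.59 CPM.

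Pla2g7 (ENSMUSG00000023913, chromosome 17, 43568098 to 43612201) encodes the lipoprotein-associated phospholipase that degrades platelet-activating factor and oxidised phospholipids. It was at 18.9, 14.2, 22.4 and 19.9 CPM in control replicates 1 to 4 and at 23.8, 20.6, 23.3 and 32.8 CPM in the knockout replicates. Knockout replicate 2 lay below control replicate 3, so the groups overlapped. The log2 fold change was 0.42 with a standard error of 0.21, and 0.26 without knockout replicate 4, the highest library.

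**Figure D2:**
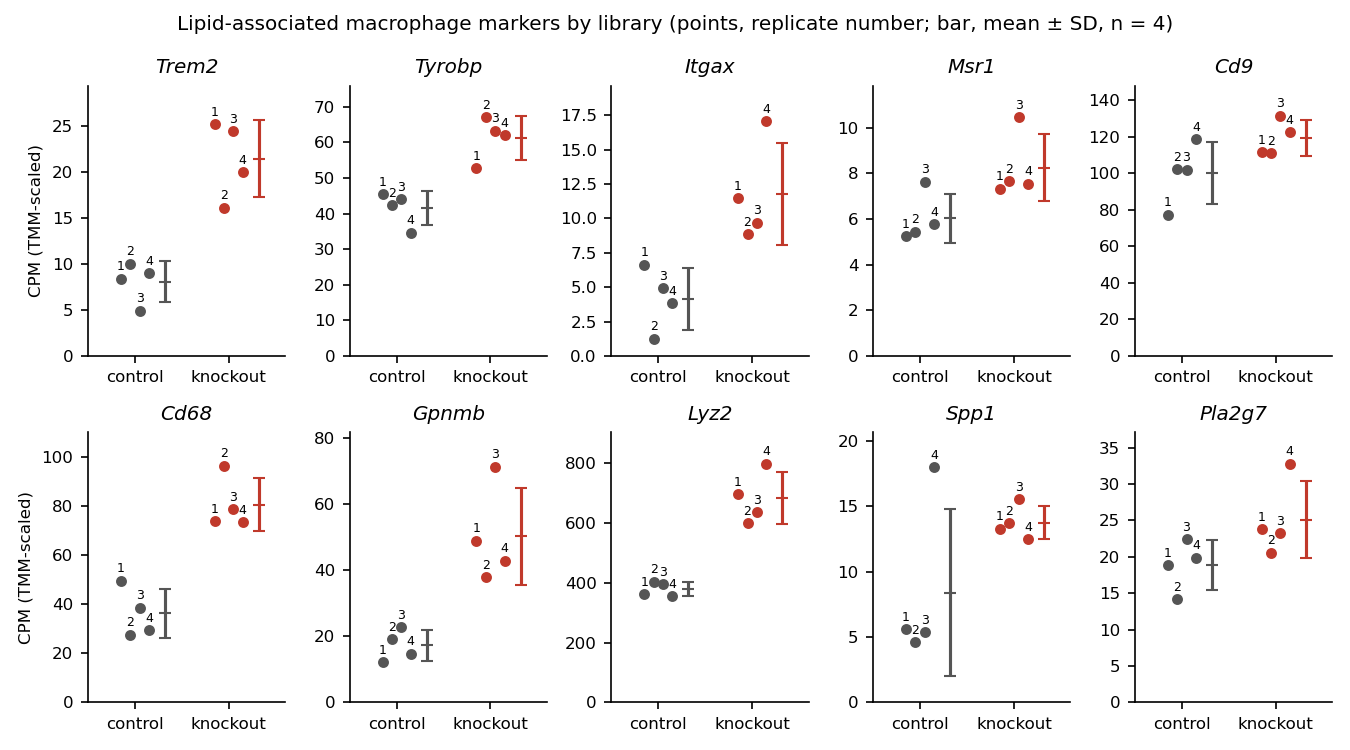
Level of each of the 10 markers (y axis, CPM on TMM-scaled library sizes, from 0) in the 4 control (grey) and 4 knockout (red) libraries, 1 point per library with its replicate number, and the mean ± SD beside them. The groups do not overlap for Trem2, Tyrobp, Itgax, Cd68, Gpnmb and Lyz2, and they overlap for Msr1, Cd9, Spp1 and Pla2g7.

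Across the 10 markers the log2 fold changes ran from 0.26 to 1.54 with a median of 0.82. Over the 12480 genes tested the median was -0.001 and 49.7% were above 0. For 6 of the 10, all 4 knockout libraries lay above all 4 control libraries, as they did for 2.48% of the tested genes. In the fit over all genes, 0.12% of the tested genes lay upward past edgeR's threshold, an adjusted p of 0.05, and Cd68, Gpnmb and Lyz2 were among them. Since the members were chosen partly on the same values, these counts describe the choice, are no test of the members, and nothing is read from them. The count past the threshold also depended on single libraries: without control replicate 2, 0 of the 10 passed, without knockout replicate 1 only Lyz2 passed, and leaving out control replicate 1, control replicate 3 or knockout replicate 2 gave a count of 2 each time. Trem2 was past the threshold in edgeR only without the low-count filter, and in DESeq2 with and without that filter.

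**Figure D3:**
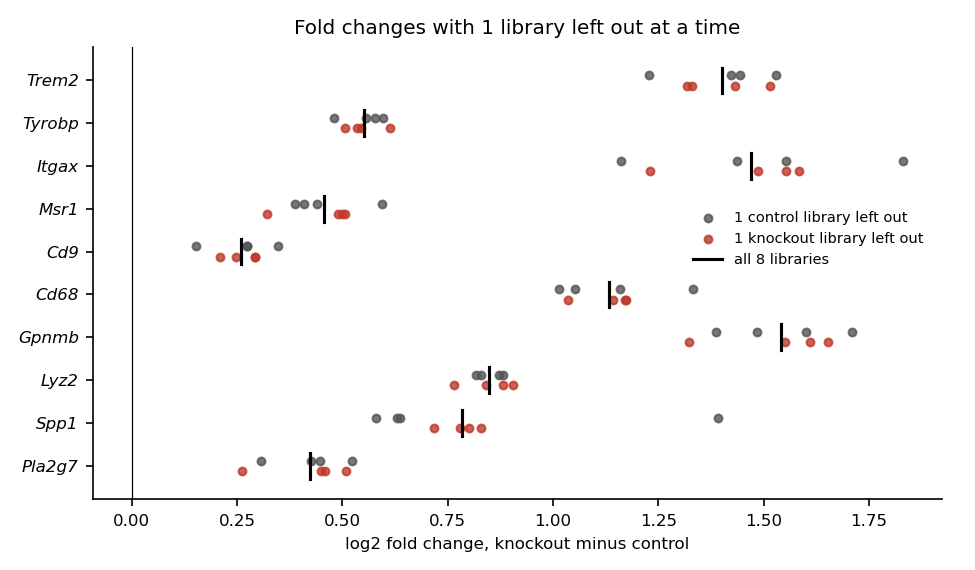
Log2 fold change of each marker (x axis, knockout minus control) with all 8 libraries (black line) and with 1 control (grey) or 1 knockout (red) library left out. All 80 points lie above 0, Spp1 moves farthest, from 0.78 to 1.39 without control replicate 4, and Itgax ranges from 1.16 to 1.83.

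The markers did not share 1 order of libraries within a genotype. Among the control libraries, replicates 1, 2, 3 and 4 were the highest for 3, 2, 3 and 2 markers, respectively. Among the knockout libraries, replicate 3 was the highest for 4 markers and the lowest for 0, and replicate 2 was the lowest for 6 (Trem2, Gpnmb, Cd9, Itgax, Lyz2 and Pla2g7) and the highest for Tyrobp and Cd68. With the mean of each genotype removed, the correlation of a marker with the mean of the other members ran from -0.389 (Trem2) to 0.646 (Pla2g7). The part of counting error in these correlations was not tested. In these 8 libraries, the mean of the 10 markers was not a pattern that each of them followed. Genes outside the list were ranked by how closely their log2 CPM followed that mean once the mean of each genotype was removed. The 5 highest of 12470 genes over 8 libraries were Hdac3, Mtmr4, Tmem144, Bcat1 and Uggt1, with Pearson correlations of 0.942 to 0.956. They head a ranking of many genes over few libraries and are given as a description with no test. Their log2 fold changes between the genotypes ran from -0.52 to 0.06, and edgeR's adjusted p was 0.742 or more for each.

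The markers were set beside 10 general macrophage markers and 8 markers of resident macrophages. Of the 9 general markers tested, 8 had a log2 fold change above 0, with a median of 0.30 and a range of -0.06 to 0.46. None of them rose or fell in edgeR's test, while 4 had an unadjusted p under 0.05 upward, as did 3.52% of all tested genes. Adgre1, which encodes the macrophage surface protein F4/80, had the largest value at 0.46 (edgeR adjusted p = 0.771). Csf1r, the growth factor receptor on which macrophages depend, had a log2 fold change of 0.30 (edgeR adjusted p = 0.775). It was at 57.7 to 75.8 CPM in the control and 76.9 to 107 CPM in the knockout libraries. For 2 of the 9, Adgre1 and Csf1r, every knockout library lay above every control library. Such separation held for 0 of the 7 tested resident markers and for 2.48% of all tested genes. The 7 resident markers tested had a median of 0.25 and a range of -0.19 to 0.38, with 0 calls and 2 at an unadjusted p under 0.05, Mrc1 and F13a1. DESeq2 and limma-voom called 0 genes of either list.

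Of the 10 lipid-associated markers, 7 had a larger log2 fold change than each of these 16 tested macrophage markers. Tyrobp, at 0.55, was the lowest of the 7, and Msr1, Pla2g7 and Cd9 lay within the range of the general markers. The mean log2 CPM of the 10 markers minus that of the general markers was -1.12, -1.09, -0.90 and -0.59 in control replicates 1 to 4. In the knockout libraries, in the same order, it was -0.27, -0.52, -0.08 and -0.36. The groups did not overlap on this difference. Since the 10 were chosen partly for their rise, it is a description and was not tested.

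**Figure D4:**
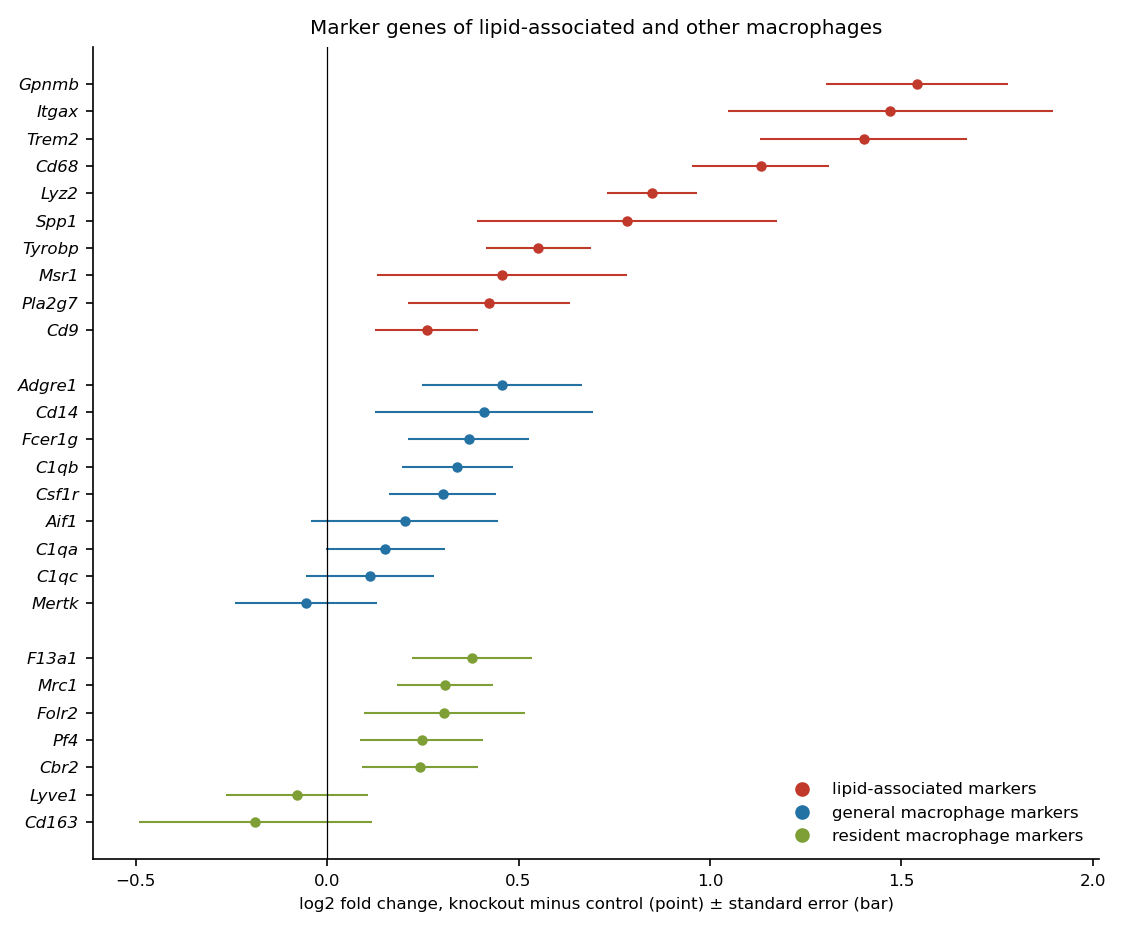
Log2 fold change (x axis, knockout minus control, point) with its standard error (bar) for the 10 lipid-associated markers (red), the 9 tested general macrophage markers (blue) and the 7 tested resident macrophage markers (green). The red points run from 0.26 to 1.54, the blue from -0.06 to 0.46 and the green from -0.19 to 0.38.

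Other genes of the lipid-associated programme were described by 3 lists: lysosomal genes, lipid handling genes, and further surface, secreted and regulatory genes. These lists were drawn up with results of the same libraries known, so they are not independent evidence of a direction. Of 20 lysosomal genes, all tested, 2 rose (the cathepsin gene Ctss and the acid lipase gene Lipa) and 0 fell in edgeR's test. Of all tested genes, 0.12% rose and 0.0481% fell. The median log2 fold change of the 20 was 0.20. Ctss was at 63.5 to 70.4 CPM in the control and 135 to 187 CPM in the knockout libraries (log2 fold change 1.21, edgeR adjusted p = 0.000666). Lipa, which frees cholesterol and fatty acids from lipoproteins in the lysosome, was at 67.8 to 90.1 and 133 to 163 CPM (log2 fold change 0.89, edgeR adjusted p = 0.00776). Atp6v0d2, a macrophage and osteoclast subunit of the lysosomal proton pump, had a log2 fold change of 1.51 (edgeR adjusted p = 0.151). Its values rest on 5 to 17 counts per library in the control and 26 to 43 in the knockout. Control replicates 2 and 4, at 10 and 5 counts, were below the level required by the low-count filter. The gene was therefore tested through the group in which it is high. Creg1, a lysosomal glycoprotein gene, had a log2 fold change of 0.62 (edgeR adjusted p = 0.113). Both Atp6v0d2 and Creg1 passed with DESeq2. Psap, the precursor of the saposins that help degrade sphingolipids, had a log2 fold change of 0.43 without overlap of the groups (edgeR adjusted p = 0.45). The groups lay apart in this direction for 6 of the 20 and for 2.48% of all tested genes. The cathepsin gene Ctsb, at 844 to 1181 CPM in the control and 1201 to 1360 CPM in the knockout libraries, was another of the 6. Its log2 fold change was 0.25 (edgeR adjusted p = 0.812). The cathepsin gene Ctsd stood at 0.01 and the membrane protein gene Lamp1 at -0.04. Lamp2, a partner of Lamp1 in the lysosomal membrane, lay the other way, with a log2 fold change of -0.19 (edgeR adjusted p = 0.83). It was at 308 to 364 CPM in the control and 283 to 299 CPM in the knockout libraries. Lipa did not pass without control replicate 2.

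Of 12 lipid handling genes, all tested, 2 had an unadjusted p under 0.05 upward, as did 3.52% of all tested genes. In edgeR's test 0 of the 12 rose or fell, and DESeq2 called 1, Abcg1. The median log2 fold change was 0.003. Abcg1, which exports cholesterol to lipoproteins, was at 24.4 to 45.7 CPM in the control and 60.1 to 92.5 CPM in the knockout libraries without overlap (log2 fold change 0.95, edgeR adjusted p = 0.0962). Nceh1, a cholesterol ester hydrolase, was at 17.04 to 18.6 and 24.05 to 28.8 CPM, also without overlap (log2 fold change 0.55, edgeR adjusted p = 0.482). Such upward separation held for 2.48% of all tested genes. Pparg, the fat cell regulator, had the third smallest p at a log2 fold change of -0.23 (edgeR adjusted p = 0.802). The genes that fat cells also make in quantity had log2 fold changes near 0: Fabp4 -0.03, Lpl -0.14, Cd36 -0.01, Plin2 0.08 and Apoe -0.08.

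Of 11 further genes of the programme, 8 were tested. Of these 3 rose, where 0.12% of all tested genes rose: the macrophage elastase gene Mmp12, the galectin gene Lgals3 and the actin-capping gene Capg. Their log2 fold changes were 2.002, 0.96 and 0.88 with edgeR adjusted p of 0.000147, 0.00776 and 0.0315. Lgals3 lay in a narrow band in the knockout libraries, 346 to 353 CPM, against 128 to 204 CPM in the control. Mmp12 passed with any 1 library left out, and Lgals3 did not pass without control replicate 2. Capg did not pass in 6 of 8 such fits, those without control replicates 1, 2 or 3 or knockout replicates 1, 2 or 4. Mitf, a regulator of lysosomal genes, had a log2 fold change of 0.52 (edgeR adjusted p = 0.732). Dcstamp, a gene of macrophage fusion, Tfec and the scavenger receptor gene Olr1 were removed by the low-count filter.

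Downstream of TREM2 and TYROBP, the list of 14 signalling and processing genes held 12 that were tested. Their log2 fold changes were all above 0, from 0.14 to 0.84 with a median of 0.28. In edgeR's test 0 of them rose or fell, as with DESeq2 and limma-voom. An unadjusted p under 0.05, upward, was reached by 3.52% of all tested genes and by 3 of the 12. These were Inpp5d, the lipid phosphatase SHIP1 that restrains the pathway (0.84, edgeR adjusted p = 0.689), the exchange factor gene Vav3 (0.78, edgeR adjusted p = 0.695) and the kinase gene Fyn (0.40, edgeR adjusted p = 0.695). Syk, the kinase that TYROBP recruits, was at 11.7 to 21.5 CPM in the control and 11.6 to 23.9 CPM in the knockout libraries. Adam10 and Adam17, the proteases that shed TREM2 from the cell surface, had log2 fold changes of 0.17 each. Of 8 other receptor genes that use TYROBP, Siglech alone was tested (log2 fold change 0.13, edgeR adjusted p = 0.982), Trem3 was at 0 in every library and 3 of the 8 had 3 counts or fewer in each library.

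Binding partners and relatives of the members were 28 genes, of which 23 were tested. None rose or fell in edgeR's test, DESeq2 or limma-voom. An unadjusted p under 0.05 was found for 5 upward and 0 downward. Of all tested genes, 3.52% lay upward and 2.87% downward. The integrin subunit gene Itgb2, whose product pairs with that of Itgax, was at 7.95 to 16.8 CPM in the control and 24.3 to 25.6 CPM in the knockout libraries, and Itgam, which also pairs with it, was at 10.9 to 21.3 and 24.2 to 26.2 CPM. For both genes the groups did not overlap, with log2 fold changes of 1.02 and 0.62 (edgeR adjusted p = 0.222 and 0.616). Upward separation of the groups was seen for 2.48% of all tested genes. Among the 7 receptor genes of osteopontin that were tested, log2 fold changes ran from -0.34 (Itga9) to 0.57 (Cd44). The smallest p belonged to Cd44 (edgeR adjusted p = 0.432) and to the integrin genes Itgb5 at 0.41 and Itgb1 at 0.28 (edgeR adjusted p = 0.743 and 0.773), while Itga5 stood at 0.38 and Itgav at -0.24. The Cd9 partners Cd81, Ptgfrn and Igsf8 had log2 fold changes of -0.05, -0.03 and 0.11, and each changed sign when some single library was left out. In the platelet-activating factor pathway, Pafah2, Ptafr and Pafah1b2 had the smallest p, with log2 fold changes of 0.56, 0.33 and -0.17. The scavenger receptor genes Scarb1, Colec12 and Cxcl16 stood at 0.27, 0.18 and 0.10.

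Of the markers of 16 other cell types or states, 63 were tested and none rose or fell in edgeR's test. At an unadjusted p under 0.05, 3.52% of all tested genes lay upward and 2.87% downward. Of the 63 markers, 2 lay upward and 3 downward, and their median log2 fold change was -0.001. DESeq2 and limma-voom called 1, the fat cell gene Retn, lower in the knockout libraries at a log2 fold change of -0.65. Neutrophils also make Lyz2: 4 of the 9 neutrophil markers had 3 counts or fewer in each library, Ngp and Ltf were at 0 in all of them, and the summed level was 33.2 to 37.8 CPM in the control and 33.5 to 46.2 CPM in the knockout libraries. Markers of monocytes, which also make Lyz2, summed to 138 to 153 and 123 to 177 CPM, and those of dendritic cells, which also make Itgax, to 31.4 to 36.8 and 30.7 to 44.9 CPM. Fat cell markers summed to 20910 to 30530 and 15610 to 27090 CPM. The largest part of the neutrophil sum was Cxcr2, at 24.7 to 29.0 in the control and 19.0 to 38.0 CPM in the knockout libraries. For monocytes it was Ace, at 59.05 to 76.3 and 58.9 to 85.3 CPM. For fat cells it was Cfd, at 9937 to 17990 and 5499 to 15850 CPM. These sums therefore depend heavily on single genes. The part of these cell types in the levels of the 10 markers was not tested.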

How the data were processed

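Gene expression in 8 libraries of mouse epididymal fat, 4 per genotype, was measured by BRB-seq, a method that primes cDNA from the poly(A) end, per the labels' protocols. The authors deposited estimated counts per gene without normalization. Salmon and GRCm38 are named in the submitters' processing notes, while the version, the annotation and any use of molecular identifiers are not given in the sources used here. The design assumed estimated counts rounded to whole numbers, and this was done. Identifiers were matched without version to GENCODE M21 (34652 of 34866), whose GRCm38 coordinates are given.

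Differences between genotypes were tested in R 4.3.3 by edgeR 4.0.16 (TMM factors, filterByExpr, robust quasi-likelihood F test, Benjamini-Hochberg adjustment over 12480 genes, threshold 0.05). Standard errors are the log2 fold change divided by the square root of F. Totals of 1538427 to 3053565 counts put 3 counts, the limit that a count of 0 allows, at 0.984 to 1.92 CPM on the TMM-scaled sizes. Such limits cover counting error only. Replicate pairs differed by more than the sampling of reads (chi-square per degree of freedom 4.49 to 9.42). Alternatives changed the scaling (RLE or upper-quartile factors), the filter (none, or at least 80 counts summed over libraries), the rounding, the tool (limma-voom in limma 3.58.1, or DESeq2 1.42.0 on all genes) or the libraries (each left out), or added the replicate number as a block. DESeq2 on the filtered genes was added after seeing the data. The tests were first run on simulated counts.

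The members and lists were chosen with earlier results of these data known. The genes named are the members, Cyp19a1, and the genes of each list past the threshold or among its 3 smallest p. Also named are the 5 genes most like the mean of the members within genotypes. One general macrophage marker of the planned lists is not reported here. Other cell types are described by counts of their lists, and genes named beyond the rule (such as Syk, Csf1r, Psap, Fabp4 and Retn) were chosen after their values were seen. Words of 31 bases came from GENCODE M21 transcripts and promoters from RefSeq.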

Additional observations from a re-analysis of the deposited data

Results flagged for a closer look

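Dixon's ratio for 4 samples was used to find a library far from the rest of its group. Of 96 groups of values examined, 20 of them from the 10 markers, 4 of those reported here held such a library, where chance gives about 1 in 20, or 4.8. Control replicate 4 held Spp1 at 17.95 CPM, while its 3 companions had 4.603 to 5.59 CPM. Msr1 was at 10.47 CPM in knockout replicate 3, against 7.327 to 7.665 CPM in the others of its group. Control replicate 2 was low in Mmp12 at 23.43 CPM, where its companions had 33.19 to 33.98 CPM. Inpp5d was at 27.02 CPM in knockout replicate 1, against 13.12 to 14.74 CPM.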

How the results depend on the processing

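All 10 markers kept a log2 fold change above 0 under the 17 alternatives. The 3 calls among them fell to 1 with the replicate block, and to 0 to 3 with 1 library left out. Over all genes, 21 calls became 58 without a filter (37 higher, 21 lower), 53 with DESeq2 on all genes (27 higher, 26 lower), 55 with DESeq2 on the filtered genes (28 higher, 27 lower; chosen after seeing the data), 6 with the replicate block, and 4 (without control replicate 2) to 43 (without control replicate 4) with 1 library left out. Paired by replicate number, control and knockout libraries had correlations of 0.25, -0.06, -0.01 and -0.24 between their deviations. These values cannot show whether libraries with the same number were matched. The 2 lysosomal calls became 4 without a filter and with DESeq2 on either gene set, 1 with the block, and 1 to 2 with 1 library left out. The 3 calls among further programme genes became 1 with the block and 1 to 3 with 1 library left out. Without a filter, and with DESeq2 on either set, 1 lipid handling gene (Abcg1) passed, as did 1 partner (Itgb2) without a filter. Of the other cell type markers 1 (Retn) passed without a filter, with DESeq2 on either set and with limma-voom, and 0 to 1 with 1 library left out. TREM2 pathway genes gave 0 calls throughout. Signs that reversed with 1 library left out belonged to values near 0: Siglech -0.062 to 0.34, Igsf8 -0.038 to 0.279, Cd81 -0.117 to 0.038, Ptgfrn -0.318 to 0.143, Cxcl16 -0.09 to 0.251, Tmem144 -0.423 to 0.193 (0.003 with limma-voom) and Uggt1 -0.056 to 0.086. The cause of these changes was not tested. Counts were low for Itgax, Msr1, Spp1 and Trem2, at 3 to 52, 9 to 27, 11 to 40 and 11 to 63 per library. The part of depth in the spread of their values was not tested.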
